A study of Mus musculus with 90 samples.

Results

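Nuclear receptors are transcription factors that read small fat-soluble molecules, and the 37 genes described here are members of the mouse family whose ligands are metabolites, vitamins, thyroid hormone or foreign chemicals, or that have no settled ligand (orphans). The receptors for steroid hormones were left out, and the list does not hold every other member of the family. The members are a list of named genes set by ligand class, with no measured value in the rule, although earlier results of these data were known when it was made, and all 37 were found among the 20414 genes of the deposited table by their Entrez Gene identifiers. RNA was sequenced from 15 tissues of wild-type C57BL/6 female mice (C57BL/6J in the study's methods), labeled as 10 weeks old (the study's methods give a younger age), in estrus or in diestrus as read from vaginal smears. Each tissue has 3 libraries per phase, 90 libraries in all, and the study's methods describe 3 mice a phase as the source of all the tissues, so that libraries of different tissues may come from the same animals. The mice were untreated and carried no transgene, and the tissues are aorta, vein, heart, skeletal muscle, brown and white adipose tissue (BAT and WAT), liver, kidney, stomach, duodenum, spleen, cerebrum, hypothalamus, ovary and uterus. Values are FPKM, fragments scaled to transcript length and library size, which is a level per length and lets genes be set beside each other.

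A typical nuclear receptor holds a ligand pocket and a zinc-finger domain that binds short DNA elements built from the hexamer AGGTCA. Many of the receptors for metabolites bind DNA as a pair with a retinoid X receptor (RXR), with corepressors bound when the pocket is empty and coactivators when it is filled. Liver, kidney and intestine use them to sense bile acids, oxysterols, fatty acids, vitamin D and drugs, fat and muscle use the PPARs and the estrogen-related receptors for lipid storage and oxidation, and the gonads use the NR5A receptors to drive steroid synthesis.

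The depth of the libraries was approximated from the smallest steps between the values of short genes, at 9.28M to 17.9M reads in 89 libraries and 0.0776M reads in BAT estrus replicate 3, which lists 12048 genes at 0 against 2404 to 4820 in the others. The study's methods give a larger number of reads for each sample, above the highest value that this approximation could return. Each library was closest to another of its own tissue in 90 of 90 cases. Defining markers of the labeled tissue were highest in that tissue except Myh11 and Acta2 in vein and Ppargc1a in BAT, which were second. Several libraries held markers of other tissues. The summed level of 3 brown adipocyte markers was 4864 to 8053 FPKM in 5 libraries of aorta and 614 in aorta estrus replicate 1, and that of 3 cardiomyocyte markers was 1416 to 3006 against 208. Uterus estrus replicate 3 held 2930 FPKM of oviduct and 2155 of squamous markers, and hypothalamus estrus replicate 2 held 31855 FPKM of 4 pituitary hormone genes against 341 and 394 in the other estrus libraries. These sums are given again beside the receptors they move with.

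Few of the receptors were found in every tissue. A mean of at least 1 FPKM was reached in all 15 tissues by 12 of the 37, which is 32.4% against 47.96% of the 17731 genes whose mean over the 90 libraries reached 0.1 FPKM, a filter that all 37 passed. Another 17 reached it in 5 to 14 tissues and 8 in 1 to 4. The specificity index tau, which is 0 for a gene equal in all tissues and 1 for a gene of a single tissue, had a median of 0.816 over the members and 0.747 over all genes. The map of levels shows the blocks this makes, with Nr1i3 bright in liver and duodenum, Vdr in kidney and duodenum, and Nr1h4 in all 3 of these tissues.

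**Figure D1:**
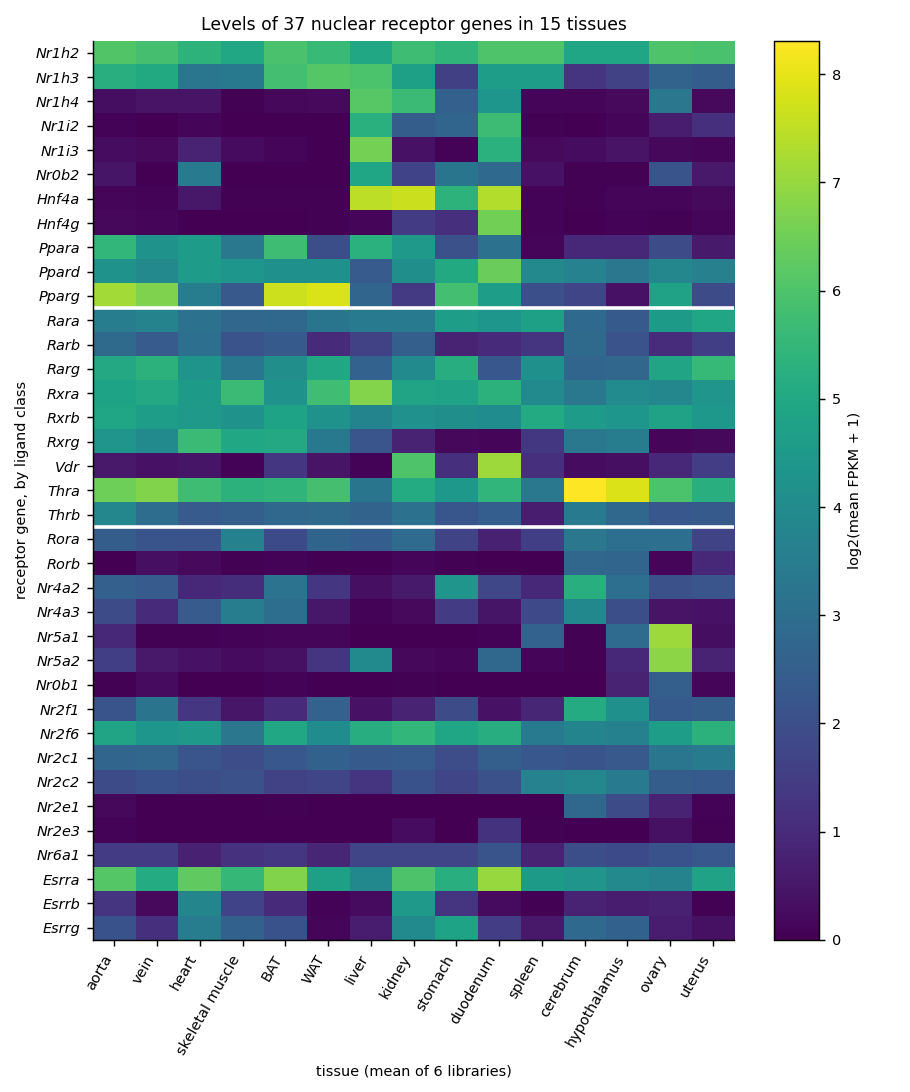
Mean level of each of the 37 receptor genes (rows, by ligand class) in the 15 tissues (columns), as log2 of the mean FPKM of 6 libraries plus 1, from purple (0) to yellow (above 8). Nr1h2, Rxrb and Nr2f6 are present in every column, while Hnf4g, Nr1i3, Nr5a1 and Nr5a2 are bright in 1 to 3.

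Breadth went with the base composition of the promoters under the choice of start described here. RefSeq windows (GRCm38.p6) of the 250 bases before the start were at hand for 34 members, with several starts for some, and the start richest in CG dinucleotides was taken. The median number of CG was 20 in the 11 members at or above 1 FPKM in all 15 tissues, 16 in the 17 of 5 to 14 tissues, and 7.5 in the 6 of 1 to 4 tissues. Over all genes with a window the medians were 18, 12 and 5, so by the richest start the receptors followed the same gradation as other genes. The counts depended on the start. Pparg held 38 CG at its richest and 2 at its poorest, and Rxra 40 and 1, while Rxrb held 39 and 31. Medians over the poorest starts were not taken. Hnf4g and Nr5a1, which reached 1 FPKM in 3 tissues each, had no window. To show the range, 5 windows are printed, chosen after their counts were seen, each read toward the gene, with every CG in capitals. Nr1i2 and Hnf4a are receptors of a few organs, Rxrb and Nr2f6 are found in every tissue, and Nr2e1 reached 1 FPKM in cerebrum and hypothalamus alone although its window holds 15 CG.
Nr1i2, chr16:38294825-38295074, minus strand: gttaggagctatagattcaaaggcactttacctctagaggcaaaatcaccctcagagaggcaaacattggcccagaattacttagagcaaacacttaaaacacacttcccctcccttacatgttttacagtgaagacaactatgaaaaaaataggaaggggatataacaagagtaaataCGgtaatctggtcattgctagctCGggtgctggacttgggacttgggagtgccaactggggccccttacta
Hnf4a, chr2:163546905-163547154, plus strand: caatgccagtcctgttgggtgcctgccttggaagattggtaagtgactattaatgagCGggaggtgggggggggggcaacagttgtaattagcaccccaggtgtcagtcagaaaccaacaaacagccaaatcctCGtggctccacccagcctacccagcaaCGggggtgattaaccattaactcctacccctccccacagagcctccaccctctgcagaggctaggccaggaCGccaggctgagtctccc
Rxrb, chr17:34032100-34032349, plus strand: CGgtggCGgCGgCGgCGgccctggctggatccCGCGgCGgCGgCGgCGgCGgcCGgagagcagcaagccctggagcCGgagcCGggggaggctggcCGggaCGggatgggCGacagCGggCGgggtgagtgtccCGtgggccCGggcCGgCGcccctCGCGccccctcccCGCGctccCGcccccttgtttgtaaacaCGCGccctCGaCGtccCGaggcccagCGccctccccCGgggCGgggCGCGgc
Nr2f6, chr8:71381953-71382202, minus strand: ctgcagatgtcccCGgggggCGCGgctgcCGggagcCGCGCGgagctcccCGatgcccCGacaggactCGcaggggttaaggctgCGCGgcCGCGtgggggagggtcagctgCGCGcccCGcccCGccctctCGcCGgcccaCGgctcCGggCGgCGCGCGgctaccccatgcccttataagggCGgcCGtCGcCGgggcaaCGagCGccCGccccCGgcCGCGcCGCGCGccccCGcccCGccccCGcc
Nr2e1, chr10:42583591-42583840, minus strand: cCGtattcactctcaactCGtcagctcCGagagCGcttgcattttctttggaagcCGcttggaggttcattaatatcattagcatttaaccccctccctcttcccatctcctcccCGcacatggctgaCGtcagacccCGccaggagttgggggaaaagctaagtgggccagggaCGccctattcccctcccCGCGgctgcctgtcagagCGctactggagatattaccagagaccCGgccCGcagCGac
The counts of CG are 2, 4, 39, 42 and 15 in that order. The hexamer AGGTCA, searched on both strands, was in a window of 9 of the 34 members (26.5%) and of 14.7% of the 15969 genes with a window, and its direct repeat with 1 base between (DR1), which contains it, was in 0 of the 34 and 0.0564% of the genes. A gene was counted when any of its windows held the letters. The 34 members had 54 windows and the 15969 genes 19728, so the members had more windows per gene in which to match, and from which to take the richest in CG. The TATA box letters TATAAA were in 7 members (20.6%) against 11.9% of genes, and the E-box CACGTG in 4 (11.8%) against 8.18%. Such matches describe letters and are not binding sites.

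**Figure D2:**
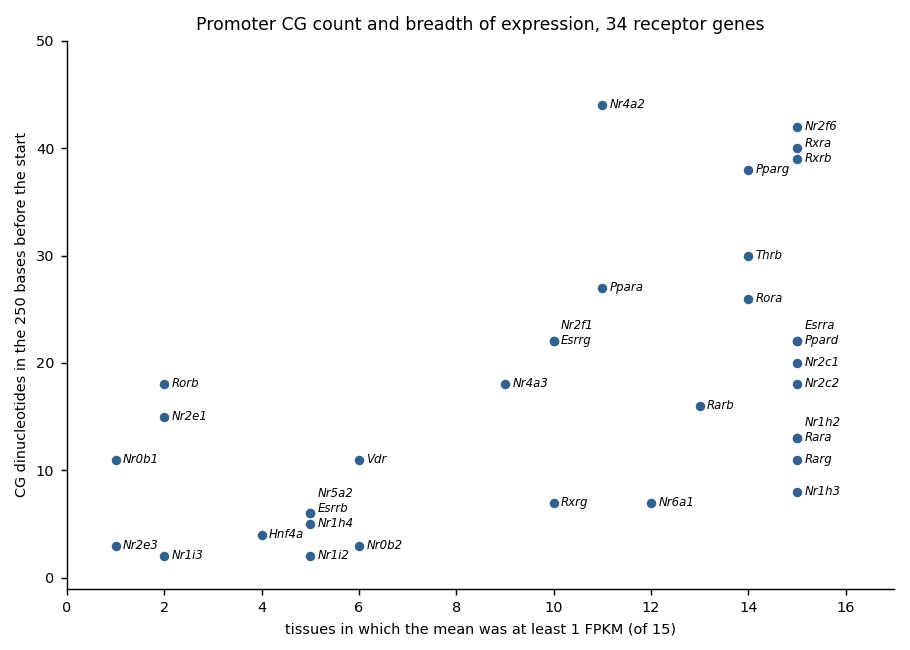
Number of CG dinucleotides in the 250 bases before the start (vertical axis, the start with most CG) against the number of tissues with a mean of at least 1 FPKM (horizontal axis), 1 point for each of 34 receptor genes. The members of 1 to 4 tissues hold 2 to 18 CG, and those of all 15 tissues 8 to 42.

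Each tissue was then compared with the mean of the other 14 in a limma fit of all 90 libraries, where a call needed a difference of 1 or more in log2(FPKM + 1) together with an adjusted p no higher than 0.05. Of the 555 pairs of a member and a tissue, 95 were higher (17.1%, against 12.5% of all pairs of a gene and a tissue) and 119 lower (21.4%, against 13.1%). Duodenum had the most members higher, 11 of 37 (29.7%, against 12.7% of genes), followed by liver with 9 (24.3%, against 7.33%) and kidney and stomach with 8 each (21.6%, against 11.3% and 11.1%). Spleen had the most lower, 14 (37.8%, against 15.1%). For 13 members the 6 libraries of the highest tissue did not overlap the 6 of the next (35.1%, against 36.3% of genes). Means below are over 6 libraries with their SD. In bulk tissue, fewer cells of a type and less RNA per cell cannot be told apart. The p-values rest on a spread per gene that is shared by all groups of the fit. They do not measure the spread within a single tissue.

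Among the sensors of bile acids, drugs and sterols, Nr1i3 (CAR, which turns on drug-metabolizing enzymes) was the most confined. It read 72.13 at the lowest, 94.11 at the median and 113.22 FPKM at the highest in liver and 17.59, 39.92 and 52.09 in duodenum, and the third tissue, heart, had a mean of 0.735. Liver and duodenum did not overlap each other, and both were higher than the other tissues, liver by 5.95 ± 0.09 (SE) on the log2 scale (limma, adjusted p = 2.77e-58) and duodenum by 4.53. Nr1i2 (PXR, the other drug sensor) had the reverse order, with 50.4 ± 15.4 FPKM in duodenum and 38.1 ± 6.85 in liver, which overlapped. Nr1h4 (FXR, the bile acid receptor) was highest in liver at 70.4 ± 8.36 and next in kidney at 49.5 ± 6.82 without overlap, then in duodenum at 19.7 ± 5.10 and in ovary at 8.77 ± 2.94 FPKM, where it was called higher too (log2 difference 1.72). The ovary value was 3.24 in estrus replicate 3, which held 1706 FPKM of oviduct markers against 21.8 to 62.1 in the other 5, and 8.60 to 11.50 in those 5.

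Nr0b2 (SHP, which lacks a DNA-binding domain and represses other receptors as a target of FXR) was at 28.4 ± 7.001 FPKM in liver. The next tissue was heart, with 9.97 ± 2.27 FPKM and no overlap with liver, although Nr1h4 was under 1 FPKM in heart. All 6 heart libraries lay between 6.62 and 13.00, and heart was higher than the other tissues by 2.29 ± 0.14 (SE) on the log2 scale (limma, adjusted p = 1.35e-23). Hnf4a, an orphan that maintains the program of liver and gut epithelium, was the most abundant of this set, with 200 ± 14.2 FPKM in kidney, 179 ± 26.6 in liver, 164 ± 51.1 in duodenum and 40.7 ± 8.03 in stomach. The first 3 overlapped, and the 11 other tissues were all called lower. Its relative Hnf4g was a gene of duodenum, at 40.38, 95.66 and 119.57 FPKM (lowest, median and highest) against 1.79 ± 0.58 in kidney, the next tissue, with no overlap and a log2 difference of 6.21 ± 0.08 (SE; limma, adjusted p = 3.84e-63). Hnf4g made up 35.9% ± 4.44 of the summed HNF4 level in duodenum and 0.0499% ± 0.030 in liver.

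The oxysterol receptors split the same way. Nr1h2 (LXR beta) ranged from 28.4 FPKM in cerebrum to 65.4 ± 7.66 in aorta, which overlapped ovary at 64.2 ± 4.32, and was called in no tissue. Nr1h3 (LXR alpha) ran from 1.41 FPKM in cerebrum to 68.2 ± 7.18 in WAT, which overlapped liver at 60.7 ± 6.17. WAT, liver, BAT, aorta and vein were higher and cerebrum, stomach, hypothalamus, uterus and ovary lower than the other tissues. In aorta Nr1h3 was 11.15 FPKM in estrus replicate 1, the library with 614 FPKM of brown adipocyte markers, and 36.51 to 46.26 in the other 5, and the difference was 1.34, or 1.63 without that library, uterus estrus replicate 3 and BAT estrus replicate 3. Nr1h3 was 67.0% ± 2.92 of the LXR sum in liver and 4.52% ± 0.716 in stomach.

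The 3 PPARs divided the tissues among them, as the plot of stacked family levels shows. Pparg, which directs fat cell formation, was at 227 ± 36.7 FPKM in WAT and 206 ± 38.9 in BAT, which overlapped, and formed 91.8% ± 1.28 of the PPAR sum in WAT. Ppara, which switches on fatty acid oxidation, was highest in BAT at 51.5 ± 20.9 and next in aorta at 43.9 ± 21.3, with overlap, and formed 79.4% ± 2.89 of the sum in liver. Ppard, a fatty acid receptor of many tissues, was highest in duodenum at 83.5 ± 11.3 FPKM, with stomach next at 32.2 ± 6.85 and no overlap, and formed 73.2% ± 11.2 of the sum in duodenum. The aorta values of Pparg and Ppara moved with the markers of fat: Pparg was 125.98 to 197.18 and Ppara 37.90 to 61.29 FPKM in the 5 libraries with high brown adipocyte sums, and 18.92 and 3.81 in estrus replicate 1. The part of those cells in the aorta calls was not tested.

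**Figure D3:**
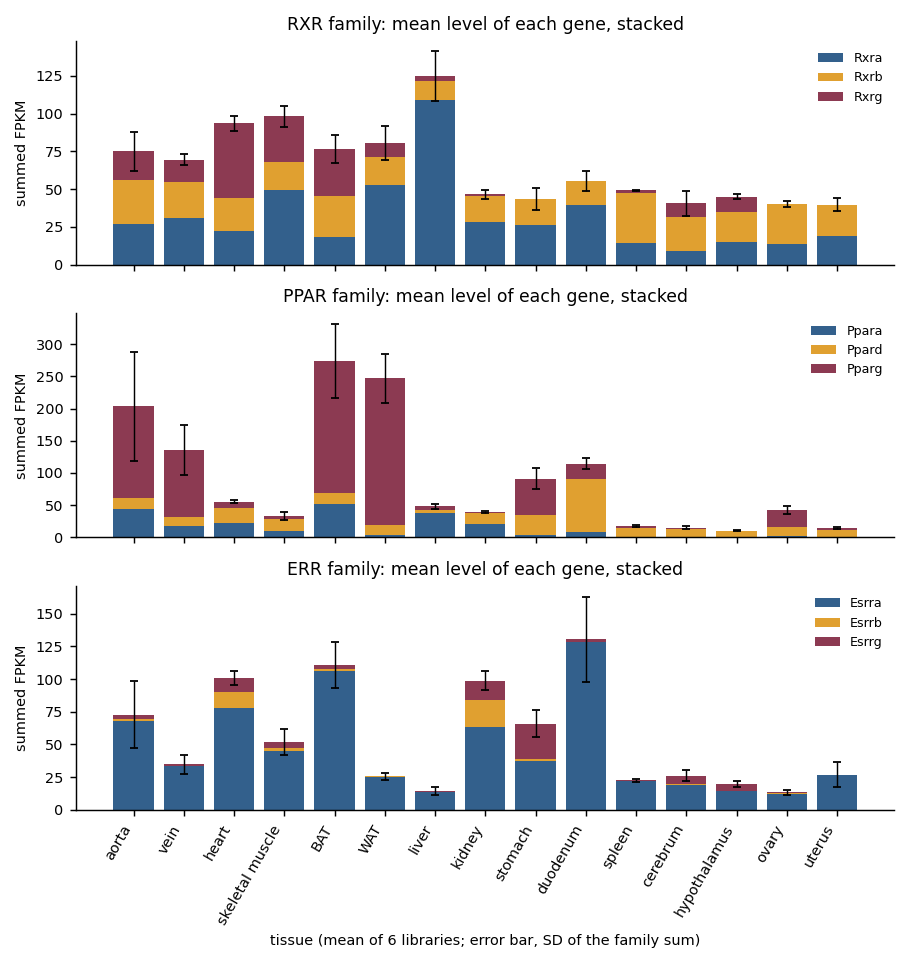
Mean FPKM of the genes of the RXR, PPAR and ERR families, stacked, in the 15 tissues, with the SD of the family sum over 6 libraries as the error bar. Rxra fills most of the RXR bar in liver and Rxrg most of it in heart, Pparg most of the PPAR bar in fat and Ppard in duodenum, and Esrra most of the ERR bar in every tissue.

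RXRs are the shared partners of many, not all, of the receptors above, and their summed mean was 39.6 FPKM or more in every tissue. Rxra was highest in liver at 109 ± 16.6 FPKM, with WAT next at 53.1 ± 8.46 and no overlap, and held 87.0% ± 2.45 of the RXR sum in liver. Rxrb stayed between 12.3 in liver and 33.0 ± 1.48 FPKM in spleen, which overlapped aorta at 28.7 ± 2.24, and was called in no tissue. Rxrg was at 49.5 ± 6.10 in heart and 31.1 ± 9.09 in BAT without overlap, then 30.4 ± 4.80 in skeletal muscle, and at 0.09 FPKM in ovary. It held 52.8% ± 3.59 of the RXR sum in heart and 30.8% ± 3.17 in skeletal muscle, where Rxra held 50.3% ± 1.79. In cerebrum Rxrg was 2.36, 20.60 and 10.09 FPKM in estrus against 17.64, 2.00 and 1.84 in diestrus. The same libraries were high and low for Rarb, a retinoic acid receptor, at 2.28, 14.07 and 5.93 in estrus and 10.75, 2.73 and 2.01 FPKM in diestrus. Estrus replicates 2 and 3 and diestrus replicate 1 were the high libraries for both, which spread by far more within a phase than between the phases.

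The other retinoic acid receptors had their highest means in uterus. Rarg was at 46.5 ± 7.53 FPKM there and 39.1 ± 10.3 in vein, and Rara at 28.9 ± 8.42 there and 25.4 ± 1.49 in spleen, with overlap in each case. Uterus was called higher for both, by 1.63 and 1.35 on the log2 scale, and by 1.62 and 1.22 without uterus estrus replicate 3, aorta estrus replicate 1 and BAT estrus replicate 3. Rarb had its highest mean in heart at 7.17 ± 1.03, overlapping cerebrum at 6.30 ± 5.05. In stomach, part of which has a squamous lining in the mouse, Rarg was at 47.39, 20.29 and 72.15 FPKM in estrus against 28.48, 22.89 and 19.91 in diestrus, beside squamous marker sums of 2909, 65.5 and 4830 in estrus and 772, 227 and 9.04 in diestrus.

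Vdr, the vitamin D receptor, belonged to the calcium-handling epithelia. It was 58.49 at the lowest, 134.6 at the median and 184.09 at the highest in duodenum and 49.50, 62.75 and 74.25 FPKM in kidney, which overlapped through duodenum estrus replicate 1 alone. The third tissue, uterus, had 1.83 ± 1.28. Of the thyroid hormone receptors, Thra was the main form in every tissue. It was highest in cerebrum at 316 ± 62.0, overlapping hypothalamus at 235 ± 10.6, and lowest in liver at 8.29 FPKM (log2 difference -2.58 ± 0.13, SE; limma, adjusted p = 3.49e-28). Thrb had its highest mean in aorta at 13.4 ± 9.54, overlapping cerebrum at 10.1 ± 1.21, and aorta estrus replicate 1 alone reached 32.73 against 8.23 to 11.78 FPKM in the other 5. The log2 difference of aorta from the other tissues was 1.16, and 0.88, below the limit, without the 3 libraries named above. Its share of the sum was largest in liver, 39.1% ± 6.76, and 2.40% ± 0.159 in hypothalamus.

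The NR5A orphans are known from steroid-making cells, but not from these alone. Nr5a1 (SF-1) was at 119.89, 122.79 and 102.66 FPKM in ovary in estrus and 155.26, 157.35 and 151.36 in diestrus, with hypothalamus next at 6.43 ± 1.53 and spleen at 5.16 ± 1.42, both without overlap with ovary. It is known from the ventromedial hypothalamus and from the vessels of the spleen, and both tissues were called higher, by 2.08 and 1.78 on the log2 scale. Hypothalamus estrus replicate 2, with the most RNA of pituitary hormone genes among the estrus libraries, read 6.76 and the other hypothalamus libraries 5.0 to 8.47. The part of pituitary cells in these values was not tested. Nr5a2 (LRH-1) was at 116 ± 20.2 FPKM in ovary and 14.5 ± 0.88 in liver without overlap, and then 5.89 ± 3.02 in duodenum. The ovary thus held both in similar amounts, with Nr5a2 at 46.1% ± 3.43 of their sum, while Nr5a2 was 99.9% in liver and 1.43% ± 0.498 in spleen. Nr0b1 (DAX1, which represses SF-1) was at 4.76 ± 1.05 in ovary and 0.79 ± 0.19 FPKM in hypothalamus without overlap, the same first pair as Nr5a1.

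Aorta estrus replicate 1 read 5.44 FPKM of Nr5a1 and 8.12 of Nr5a2, where the other 5 libraries of aorta read 0.00 to 0.09 and 0.38 to 0.99. The same library held 115 FPKM of 4 granulosa cell markers and 149 of 4 luteal markers, against 2.62 to 4.46 and 5.83 to 10.5 in the others.

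The estrogen-related receptors carry that name by sequence and bind no estrogen, and drive mitochondrial genes. Esrra was highest in duodenum at 128 ± 33.1 FPKM and BAT at 106 ± 18.04, which overlapped. Esrrb was at 21.1 ± 3.47 in kidney and 12.8 ± 0.17 in heart without overlap, with 2.18 ± 1.34 in skeletal muscle, the third. Esrrg was at 27.4 ± 12.2 in stomach, overlapping kidney at 14.3 ± 2.68, and the lowest stomach value, 6.23 FPKM, was from the library with 4830 FPKM of squamous markers.

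Brain took the lead for 7 members, all in cerebrum. Nr2f1 (COUP-TF1, a patterning factor of cortex) was at 33.7 ± 3.31 FPKM there and 16.9 ± 2.01 in hypothalamus, and Nr2e1 (Tlx, a factor of neural stem cells) at 6.07 ± 1.16 and 2.82 ± 0.36, both without overlap. Rorb, a factor of the clock and of cortical layers, was at 5.72 ± 1.67 and 5.52 ± 0.40 in the same tissues, with overlap. Nr2c2 (TR4) was at 13.3 ± 1.19 in cerebrum and 11.8 ± 1.75 in spleen, with overlap. The NR4A receptors, which answer to stimuli within minutes and need no ligand, spread widely between libraries. Nr4a2 ran from 20.73 to 47.85 in cerebrum and 6.58 to 31.16 in stomach, and Nr4a3 from 6.21 to 23.93 in cerebrum and 3.34 to 16.76 FPKM in skeletal muscle, with overlap in both. Thra is the seventh.

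The last orphans had their highest means in skeletal muscle, kidney, uterus or duodenum. Rora, which works in the clock, was highest in skeletal muscle at 11.5 ± 0.86 FPKM, overlapping cerebrum at 8.84 ± 2.92. Nr2f6 was at 43.8 ± 9.89 in kidney and 39.3 ± 11.4 in uterus, Nr2c1 (TR2) at 9.75 ± 1.90 in uterus and 8.61 ± 0.96 in ovary, and Nr6a1 (GCNF, known from germ cells) at 3.75 ± 0.90 in uterus and 3.50 ± 0.63 in duodenum, all with overlap. Nr2e3, a factor of photoreceptors, passed 1 FPKM in duodenum alone, at 1.32 ± 0.85 against 0.302 ± 0.125 in ovary, with overlap.

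Target genes of a receptor, listed by textbook function together with coregulators as 98 genes in 12 lists, were set beside the receptor over the 15 tissue means. These correlations describe 15 points that share libraries and mice. Pearson's r of log2 levels was 0.97 between Nr1i3 and the mean of 6 targets of CAR and PXR, which were led by Cyp3a11 with 1528 FPKM in liver, and 0.92 between Nr1i2 and the same list. It was 0.88 between Nr5a1 and 9 NR5A targets, all highest in ovary, such as Cyp11a1 at 2644 FPKM. For Hnf4a it was 0.88, for Pparg 0.82, for Nr1h4 0.81, for Ppara 0.78, for Esrra 0.76, for Thrb 0.74 and for Vdr 0.68. The evenly expressed Nr1h2 had 0.18 with 8 LXR targets, and Rarb -0.42 with 11 genes of retinoid action, while the other 8 receptors lay between 0.31 and 0.83. These are values for the mean of a list, and single genes could go with the receptor less closely. The median r of the single genes was 0.71 for Hnf4a, 0.75 for Pparg and 0.72 for Esrra. It was 0.38 for Nr1h4, 0.45 for Ppara, 0.39 for Thrb and 0.43 for Vdr. Among the members themselves, Nr0b1 and Nr5a1 had the highest r at 0.93, followed by Nr2e3 and Hnf4g at 0.93, Nr1i2 and Hnf4a at 0.93, and Nr2e1 and Rorb at 0.92, and the lowest was -0.78 for Rara and Rxrg.

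The comparison of the phases asks which receptors follow the estrous cycle in a tissue. Of 358 pairs of a member and a tissue with a mean of at least 1 FPKM, 0 passed the limits of 1 on the log2 fold change and 0.05 on the adjusted p in the limma fits within tissues, against 0.00108% of all pairs. At an unadjusted p under 0.05 there were 37 pairs (10.3%, against 7.84% of all pairs), and in 54 the phases did not overlap (15.1%, against 15% of all pairs). A single fit of all 90 libraries called 3, which were Ppara in BAT, Nr5a2 in duodenum and Nr2f1 in uterus. The share of all pairs called in that fit was not counted. That fit shares the spread of a gene over all tissues, so its p does not measure the spread in the tissue named. With 3 libraries against 3, an exact permutation test cannot give a p below 0.1. The median log2 fold change of the members, estrus minus diestrus, lay between -0.14 in duodenum and 0.13 in uterus, and that of all genes tested between -0.16 in duodenum and 0.06 in WAT.

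**Figure D4:**
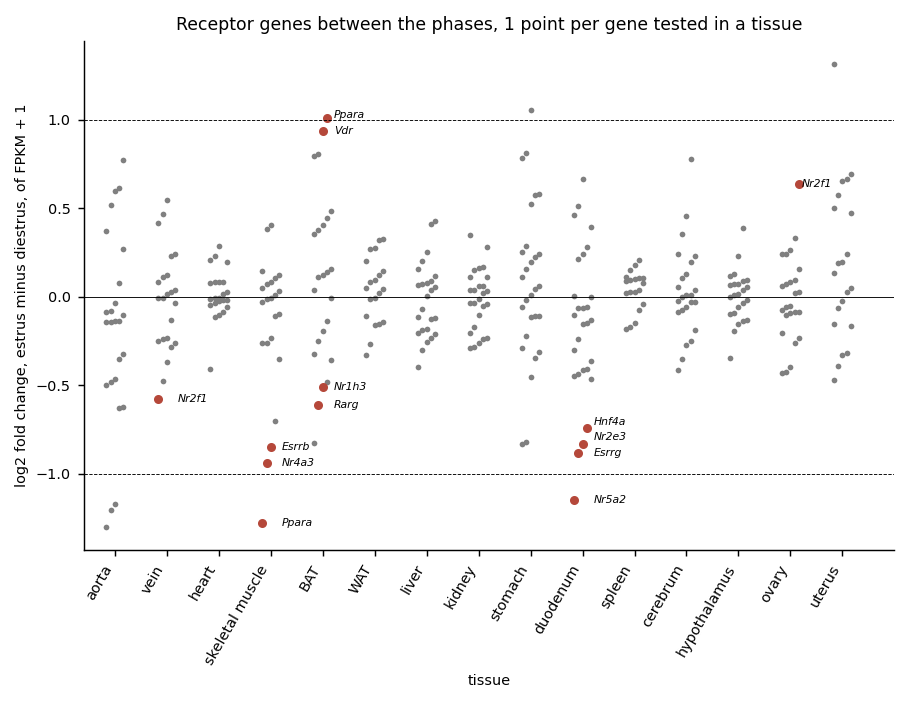
Log2 fold change, estrus minus diestrus, of log2(FPKM + 1) for each receptor gene tested in each tissue (1 point each), with dashed lines at 1 and -1. Red points with names had an unadjusted p under 0.05 and a change of at least 0.5, and 0 of them passed the adjusted limits.

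Ppara stood out in a pair of tissues, with opposite signs. In BAT it was 80.94, 58.30 and 68.46 FPKM in estrus against 33.88, 38.31 and 29.09 in diestrus. All 3 estrus libraries lay above all 3 of diestrus, the log2 fold change was 1.01 ± 0.17 (SE), and the adjusted p was 0.180 in the limma fit of BAT and 0.0398 in the fit of all 90 libraries. Without estrus replicate 3, the shallow library, the change was 1.01 with an adjusted p of 0.0511 (limma). With libraries scaled to the same upper quartile of their values above 0 it was 0.60, where the median of all genes in BAT moved from -0.12 to -0.46. The shallow library lists 12048 genes at 0, so its quartile was taken over fewer genes than in the others. The part of this in the scaled values was not tested. In skeletal muscle Ppara was 7.54, 4.07 and 3.54 FPKM in estrus against 15.14, 10.67 and 13.81 in diestrus, with the estrus libraries below, a log2 fold change of -1.28 ± 0.24 (SE) and an adjusted p of 0.0938 (limma). Without estrus replicate 1 it was -1.55 with an adjusted p of 0.00980 (limma), where 2 libraries are set against 3. In heart, liver, kidney, WAT, vein, duodenum and ovary the log2 fold change of Ppara lay between -0.26 and 0.23. In stomach it was 1.05 with overlap, and in aorta -1.30, which became -0.19 without estrus replicate 1.

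The summed level of 7 clock genes of the Dbp phase, which follow the time of day, was 80.4, 194 and 358 FPKM in estrus against 284, 250 and 298 in diestrus in BAT, and 93.9, 198 and 276 against 259, 181 and 263 in skeletal muscle, with overlap in both. BAT also held 22.04 to 4574 FPKM of muscle fiber markers, with 837 to 1189 in estrus inside the diestrus range. Of 13 PPARA targets, 9 were tested in BAT and 7 in skeletal muscle, and 0 passed in either (limma, smallest adjusted p of 0.192 and 0.183). In BAT 6 were above and 3 below 0, with a median log2 fold change of 0.41, and in skeletal muscle 4 were above and 3 below, with a median of 0.01. The 2 most abundant in BAT were Acadm, an enzyme of fatty acid oxidation, at 920.74, 1074.50 and 1143.78 in estrus and 835.37, 816.59 and 713.19 in diestrus, and Plin2, a lipid droplet coat, at 550.39, 500.38 and 572.39 against 356.60, 448.99 and 409.81 FPKM. In both the estrus libraries were all above those of diestrus (adjusted p = 0.255 and 0.239, limma). In skeletal muscle Acadm was 152.91, 107.98 and 89.51 in estrus and 190.65, 150.80 and 156.00 in diestrus, which overlapped, and Pdk4, which slows glucose oxidation, was 530.19, 76.87 and 70.27 against 157.94, 107.07 and 82.45 FPKM.

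In skeletal muscle 6 of 23 members had an unadjusted p under 0.05 (26.1%, against 20.8% of genes). Esrrb was 2.34, 0.75 and 0.82 FPKM in estrus against 4.40, 2.31 and 2.48 in diestrus, and Nr4a3 11.95, 6.64 and 3.34 against 9.19, 15.70 and 16.76, with overlap through estrus replicate 1 in each. Their log2 fold changes were -0.85 and -0.94 (limma, adjusted p = 0.166 and 0.235), and -1.15 and -1.33 without estrus replicate 1 (limma, adjusted p = 0.0264 and 0.0432). Esrrg, at 7.57, 2.46 and 1.63 in estrus and 8.49, 5.90 and 4.13 in diestrus, was called without that library as well (-1.20, adjusted p = 0.0344, limma). How many of all genes in skeletal muscle were called without that library was not counted. These calls, and that of Ppara above, therefore cannot be told from a shift of many genes. Rxrg was higher in all 3 estrus libraries, 32.89 to 37.06 against 25.63 to 26.75 FPKM, by 0.38 ± 0.07 (SE), with the smallest adjusted p of any member, 0.0920 (limma). All 6 ERR targets were lower by mean in estrus, 5 without overlap, with a median log2 fold change of -0.36 and 0 called (limma, smallest adjusted p of 0.102). Of all genes tested in skeletal muscle, 26.2% did not overlap between the phases and 29.6% had a higher mean in estrus, with a median change of -0.08. Sdhb, a subunit of respiratory complex II, was 407.12, 317.67 and 255.74 in estrus and 537.37, 514.67 and 503.22 FPKM in diestrus.

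In BAT 7 of 24 members had an unadjusted p under 0.05 (29.2%, against 12.8% of genes). The phases did not overlap in 10 of the 24 (41.7%, against 30.1% of genes). Nr1h3 was 42.21, 46.77 and 47.63 FPKM in estrus against 65.06, 67.46 and 63.04 in diestrus, without overlap (log2 fold change -0.51 ± 0.10, SE; adjusted p = 0.198, limma). Rarg was 11.15, 17.30 and 9.81 against 21.75, 16.99 and 20.06, and Vdr 2.49, 1.39 and 3.07 against 0.68, 0.97 and 0.46 FPKM, the first with overlap and the second without (log2 fold changes -0.61 and 0.94, adjusted p = 0.364 and 0.340, limma). The estrus replicate 3 in these values is the library of 0.0776M reads.

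**Figure D5:**
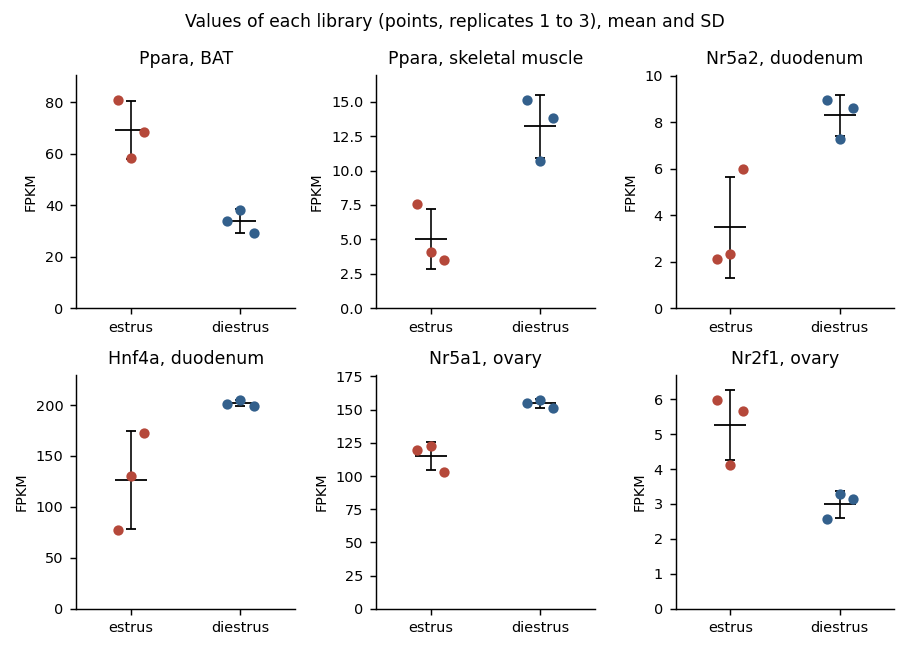
FPKM of each library (points, replicates 1 to 3 from left to right) in estrus and diestrus for 6 receptor and tissue pairs, with the mean (bar) and SD. The pairs were chosen after their values were seen, and the phases do not overlap in any of the 6 panels. Of all genes tested, 30.1% in BAT, 26.2% in skeletal muscle, 26.6% in duodenum and 13.7% in ovary did not overlap either. Ppara is higher in estrus in BAT and lower in skeletal muscle.

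In duodenum 6 of 28 members had an unadjusted p under 0.05 (21.4%, against 13.5% of genes), and 8 of the 28 had a higher mean in estrus, where 32.8% of all genes did. The phases did not overlap in 8 of the 28 (28.6%, against 26.6% of genes). Nr5a2, which maintains crypt cells, was 2.14, 2.32 and 5.99 FPKM in estrus against 8.97, 7.28 and 8.63 in diestrus, without overlap, with a log2 fold change of -1.15 ± 0.33 (SE) and an adjusted p of 0.368 in the limma fit of duodenum and 0.00253 in the fit of all 90 libraries. Hnf4a was 76.98, 129.97 and 172.93 against 200.61, 205.06 and 199.24 FPKM, without overlap (-0.74 ± 0.30, SE; adjusted p = 0.368, limma, and 0.000193 in the fit of 90 with the change below the limit of 1). Nr5a2 reached 1 FPKM in 5 tissues and Hnf4a in 4, while the fit of 90 takes its spread from all 15. Its p-values for both therefore do not measure the spread in duodenum. Without estrus replicate 1, the lowest library, the change in Hnf4a was -0.42, and that in Nr5a2 -0.94. Nr2e3 and Esrrg were low, at 0.36 to 1.18 against 1.38 to 2.57 and 0.44 to 1.88 against 1.82 to 3.20 FPKM (-0.83 and -0.88, adjusted p = 0.368, limma). Across all genes tested in duodenum the median change was -0.16, and -0.03 with libraries scaled to the same upper quartile.

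The duodenum libraries also differed in cell markers. Enterocyte markers summed to 1443, 5675 and 4962 FPKM in estrus against 2194, 2386 and 3799 in diestrus, and B cell markers to 372, 47.5 and 73.5 against 17.5, 33.9 and 18.6. Immediate early genes were at 239, 172 and 206 in estrus and 52.6, 123 and 85.9 FPKM in diestrus, without overlap, and the part of these in the receptor values was not tested. Of the 5 HNF4 targets, 2 were above and 3 below 0 with 0 called (limma, smallest adjusted p of 0.388). Apoc3, an apolipoprotein, was 447.13, 1471.88 and 963.68 in estrus and 566.66, 271.52 and 488.47 in diestrus, and Mttp, which loads lipid onto apolipoprotein B, 318.75, 1047.93 and 891.52 against 622.48, 682.98 and 863.96 FPKM. Both overlapped, where Hnf4a did not.

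In ovary, Nr2f1 was 5.98, 4.12 and 5.67 FPKM in estrus against 2.56, 3.28 and 3.14 in diestrus, without overlap (log2 fold change 0.64 ± 0.16, SE; adjusted p = 0.747, limma). Nr5a1, given above, had a change of -0.43 ± 0.11 (SE; adjusted p = 0.747, limma), with all 3 estrus libraries below those of diestrus. The lowest of them, 102.66 FPKM, was estrus replicate 3 with its 1706 FPKM of oviduct markers, and the change was -0.35 without it. Nr5a2 overlapped (-0.23). Granulosa markers summed to 1755, 2267 and 1342 in estrus and 2529, 2603 and 2050 FPKM in diestrus, with overlap, and their part in Nr5a1 was not tested. All 9 NR5A targets were tested, of which 6 were below 0 and 0 called (limma, smallest adjusted p of 0.828). Hsd3b1 was 4235.35, 3245.73 and 3293.74 in estrus and 2796.04, 4744.74 and 4457.57 in diestrus, and Cyp11a1, the first enzyme of steroid synthesis, 2239.05, 1881.47 and 2552.89 against 2416.98, 3123.78 and 3646.86 FPKM, with overlap in both.

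In vein, Nr2f1 was 6.99, 5.07 and 6.81 FPKM in estrus against 7.39, 13.25 and 9.55 in diestrus (-0.58 ± 0.22, SE; adjusted p = 0.412, limma). In uterus its log2 fold change of 1.32 rested on estrus replicate 3 at 20.08, with 0.69 to 2.06 in the other 5, and that library held the oviduct and squamous markers. Over the 98 genes of the 12 lists, coregulators included, 963 pairs of a gene and a tissue were tested, 0 were called by limma and 101 had an unadjusted p under 0.05 (10.5%, against 7.84% of all pairs).

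Whether the phase difference of a receptor varied between tissues was tested by the 14 interaction coefficients of one limma fit of 90 libraries. That fit takes the libraries as independent, although those of different tissues may come from the same mice, and its p-values do not allow for this. It was called for 1 of 37 members (2.7%, against 4.31% of genes), Nr2e3 (adjusted p = 7.62e-05), which was above 1 FPKM in duodenum alone. Hnf4a and Ppara missed the limit (limma, adjusted p = 0.0558 and 0.0623). Without aorta estrus replicate 1, the library with low brown fat markers, 4 were called, Nr2e3, Nr5a2, Hnf4a and Ppara, the last with an adjusted p of 0.00391 (limma), and without that library, uterus estrus replicate 3 and BAT estrus replicate 3 together there were 5, those 4 and Nr6a1. The shares of all genes called without these libraries were not counted, so the 4 and the 5 cannot be set against the 4.31%.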

How the data were processed

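Reads from a BGISEQ-500 were filtered by the authors with SOAPnuke, aligned with Bowtie2 2.2.5 to GRCm38.p5 and quantified with RSEM 1.2.8. The authors deposited 1 table of FPKM values with 2 decimals for 20414 Entrez genes in 90 libraries, of which 20265 had a symbol. That the values are FPKM was read from the study's methods and the values. Libraries were grouped by tissue and phase as labeled. Whole reads were within 0.2 of a step for 57.6% to 74.3% of the values of short genes, so counts were not recovered, and depth, approximate and searched up to a limit set after the values were seen, says that 1 library is far shallower. Values were tested as log2(FPKM + 1), a scale that understates the change of low genes, with limma 3.58.1 in R 4.3.3 with a trend and Benjamini-Hochberg adjustment over all genes tested.

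Phases were compared within each tissue for genes whose mean over 6 libraries reached 1 FPKM. Tissues were compared with the mean of the other 14, and phase effects between tissues, in a fit of 30 group means to 90 libraries for genes whose mean reached 0.1 FPKM. A call between groups needed a log2 difference of 1 or more together with an adjusted p no higher than 0.05. The members and the lists of targets and markers were chosen with earlier results of these data known. On tissues, each member was named with its first and second tissue. On phases, members with an unadjusted p under 0.05 and a change of at least 0.5 were named, with the 2 most abundant targets of a list (1 of them is not reported here), and members named for other reasons were chosen after their values were seen. Alternatives were a pseudocount of 0.1, no filter, upper quartile scaling, no trend, the replicate number as a block, other limits, one fit of 90 libraries and leaving out each replicate. The scripts were tested on simulated data. Promoter windows were RefSeq's for GRCm38.p6, while the files were made on p5. Levels were summarized in Python 3.11.15 (pandas 2.3.3, numpy 2.4.6, scipy 1.17.1) and plotted with matplotlib 3.10.9.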

Additional observations from a re-analysis of the deposited data

Results flagged for a closer look

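The phase difference of Nr2e3 varied between the tissues by the test of the 14 interaction coefficients (limma, adjusted p = 7.62e-05), as a difference between groups tested directly. The test takes libraries of different tissues as independent, although they may share mice. In duodenum Nr2e3 was 0.48, 0.36 and 1.18 FPKM in estrus against 2.57, 1.92 and 1.38 in diestrus, and in the other 14 tissues its mean was at most 0.302 FPKM. With a pseudocount of 0.1 in place of 1 it was no longer called.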

How the results depend on the processing

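The call of 0 members between the phases within tissues held under a pseudocount of 0.1, no filter, upper quartile scaling, no trend, the replicate block and no limit on the fold. One fit of all 90 libraries called 3, and leaving out each replicate gave 0 to 4, the 4 being Nr4a3, Ppara, Esrrb and Esrrg in skeletal muscle without estrus replicate 1. The shares of all pairs called in these fits were not counted, so the counts have no background beside them. Pairs with an unadjusted p under 0.05 numbered 22 to 49 when each replicate was left out, the lowest without diestrus replicate 1. Calls against the other 14 tissues were 92 to 96 higher and 117 to 121 lower without each replicate, and 51 higher and 26 lower at a limit of 2 on the log2 difference. Members whose phase effect differed between tissues numbered 0 with a pseudocount of 0.1, 2 with no filter, 2 with no trend, and 1 to 12 when each replicate was left out, the highest without estrus replicate 2. They numbered 2 without uterus estrus replicate 3, 4 without aorta estrus replicate 1, and 5 without these and BAT estrus replicate 3, libraries chosen after seeing the data. The shares of all genes called under these alternatives were not counted. The cause was not tested.

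In no tissue was the correlation of deviations above 0.1 for all 3 same-numbered pairs of libraries of the phases, so the numbers were not taken to pair them. With the replicate block 0 members were called between the phases, 33 pairs had an unadjusted p under 0.05 against 37, and the phase effect differed between tissues for 2 members. The 770 values of single genes under the alternatives belong to 50 results. These are each member in the tissue of its largest difference, and the phase pairs with an unadjusted p under 0.05 and a change of at least 0.5. Of the values, 752 kept direction and side of the threshold, 12 lost the call, 6 gained it and 0 turned direction. A member in the tissue where it leads could hardly turn direction, so the tally was largely set by this choice. Depth limits what BAT estrus replicate 3 shows of genes of a few FPKM.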
